A study of Mus musculus with 6 samples.

Results

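The tumour necrosis factor (TNF) superfamily, that is the genes of its ligands and of their receptors, was followed in RNA of mouse splenocytes. Members were the gene symbols of the count table that begin with Tnfsf or Tnfrsf and a number, together with Tnf, Lta, Ltb, Ltbr, Cd40, Cd40lg, Cd27, Cd70, Fas, Fasl, Eda and Edar. This gave 44 of the 56413 symbols in the table, namely 18 ligands, 25 receptors and 1 noncoding transcript, Tnfsf13os, from the strand opposite to Tnfsf13. The rule used names and no measured values. The study compared total splenocytes, freshly isolated from spleen, of wild-type mice (WT, 3 libraries) with those of mice carrying a knockout of the topoisomerase gene Top3b (Top3b-KO, 3 libraries). Its stated interest is the part of Top3b in immune dysregulation and tumour formation. RNA was depleted of ribosomal RNA and all remaining RNA was sequenced, and the labels name no treatment in either group. The labels name no strain, age or kind of knockout allele. They also do not say whether each library came from its own animal, so p-values measure the spread between these libraries.

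Ligands of this superfamily are mostly trimeric membrane proteins, some of which are also shed, and they act by clustering receptors on a neighbouring cell. The receptors lack enzyme activity of their own. Those with a death domain recruit adaptors such as Fadd and Tradd and can start apoptosis. Many receptors, some with a death domain among them, activate NF-κB through Traf proteins. In the spleen the family is known for building and maintaining lymphoid tissue through lymphotoxin, for keeping mature B cells alive through BAFF, and for exchanging help between T and B cells through CD40 and its relatives.

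Libraries held between 9941014 and 25473404 counts, and the lowest total was that of Top3b-KO replicate 3. The members made up 0.120 to 0.129% of all counts in a library. Top3b itself was at 91.0 ± 4.06 and 49.8 ± 1.66 CPM in WT and knockout libraries (SD, n = 3; adjusted p = 5.78e-06 by edgeR), lower in each knockout library and still well above 0. CPM is the count scaled to the size of its library, adjusted by edgeR's TMM factors. A floor of 3 counts corresponds to 0.119 to 0.303 CPM, and it covers counting error only. The markers Cd79a and Ms4a1 of B cells and Cd3e of T cells, among others, were present in all libraries (summed B cell markers from 3381 to 3958 CPM over the WT libraries and from 3573 to 3748 CPM over the knockout libraries). In total RNA of a mixed population, fewer cells of a type and less RNA per cell cannot be told apart.

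No TNF superfamily gene passed the test between genotypes. Of 44 members, 39 had enough counts to be tested (16 ligands and 23 receptors), and 0 reached an adjusted p below 0.05 in edgeR's quasi-likelihood fit, where p-values were adjusted by the Benjamini-Hochberg method across the 18716 genes tested. By the same rule 2 of all tested genes passed (0.0107%). At an unadjusted p under 0.05 there were 3 members (7.69%), beside 5.52% of all tested genes. One of them, Tnfsf8, was higher in Top3b-KO (background 1.83%), and the others, Ltb and Tnfrsf25, were lower (background 3.69%). The 3 libraries of one genotype lay wholly above those of the other for 7 members, 17.9% of those tested, beside a background of 11.0%. These were Tnfrsf22, Tnfsf10, Tnfsf18 and Tnfrsf19, higher in Top3b-KO (background 5.39%), and Fas, Cd40 and Tnfrsf23, lower (background 5.63%). For Tnfsf18 and Tnfrsf19 the nearest libraries of the genotypes lay less than 0.119 CPM apart, the lowest value of the floor of 3 counts.

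The fitted differences lay on both sides of 0. Log2 fold changes ran from -0.44 for Tnfrsf17 to 0.44 for Tnfsf18, with 19 members above 0 and 20 below. Of all 18716 tested genes, 9193 were above 0 and 9523 below. The median of the members was -0.012, beside -0.0029 over all tested genes. For 26 of the 39 the 95% interval of the log2 fold change stayed within a 1.5-fold change in either direction. The widest intervals belonged to thinly counted genes: of 22 members at 10 CPM or more, 21 had intervals within 1.5-fold, and of 17 under 10 CPM, 5 did. Tnfrsf25 was the abundant member whose interval ran past 1.5-fold, at -0.61 to -0.045. Leaving out WT replicate 3 gave 1 member past the adjusted threshold, Ltb, where 0.167% of all genes then passed by edgeR, and 6 at an unadjusted p under 0.05, where the background rose to 13.2%. Leaving out Top3b-KO replicate 2 left 1 member at an unadjusted p under 0.05, Tnfsf8, with a background of 3.60%.

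**Figure D1:**
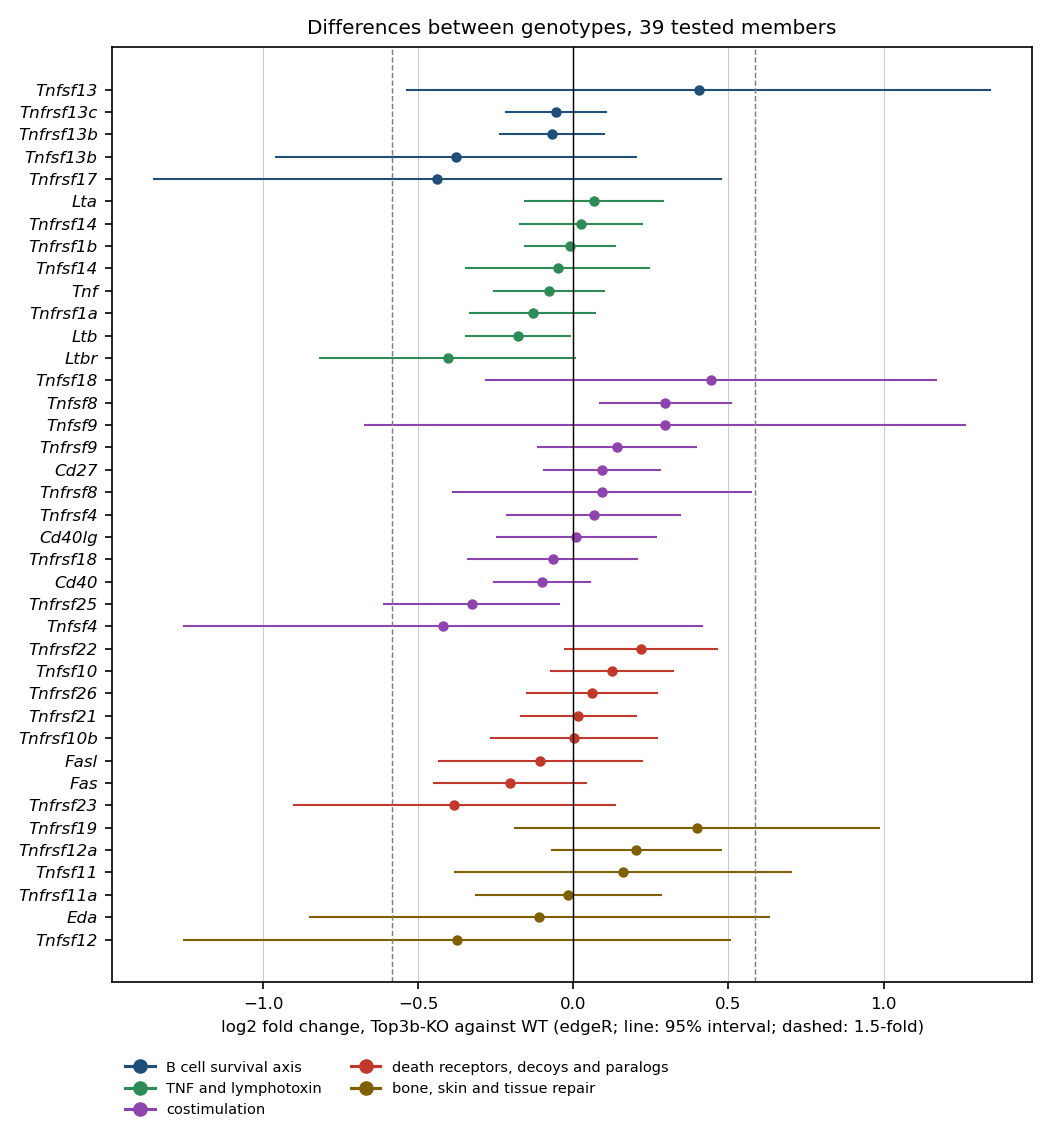
Log2 fold change of each tested member, Top3b-KO against WT (horizontal axis; points, edgeR estimate; lines, 95% interval; dashed lines, a 1.5-fold change), with genes on the vertical axis grouped and coloured by role. Points lie on both sides of 0 in each role, and the long lines belong to genes with few counts such as Tnfrsf17 and Tnfsf13.

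Levels differed far more between members than between genotypes. Divided by exon length, which allows genes to be compared, Ltb, the membrane subunit of lymphotoxin, was the highest ligand at 210.0 ± 27.4 and 186 ± 3.04 CPM per kb in WT and knockout libraries (SD, n = 3). It held 70.9 to 75.9% of the summed CPM per kb of all 18 ligands in a library. Tnf followed at 21.4 ± 0.908 and 20.1 ± 1.33 CPM per kb, and then Lta at 12.1 ± 1.17 and 12.7 ± 0.382 CPM per kb. Below these stood Cd40lg, Tnfsf14 and Tnfsf8, whose mean levels over all libraries were 10.6, 8.02 and 7.35 CPM per kb, and whose ranges over libraries overlap between neighbours in this order. Among receptors, Tnfrsf13c and Tnfrsf13b, the receptors of the B cell factors BAFF and APRIL, were highest and did not differ from each other beyond their spread (69.7 ± 7.46 and 68.4 ± 8.41 CPM per kb in WT). Together with them, Tnfrsf1b, Cd27, Tnfrsf14, Cd40 and Tnfrsf1a exceeded 10 CPM per kb on average. Neighbours Tnfrsf14 and Cd40 were separated in every library, while Cd40 and Tnfrsf1a, at 14.9 ± 0.157 and 12.8 ± 1.48 CPM per kb in WT, overlapped.

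**Figure D2:**
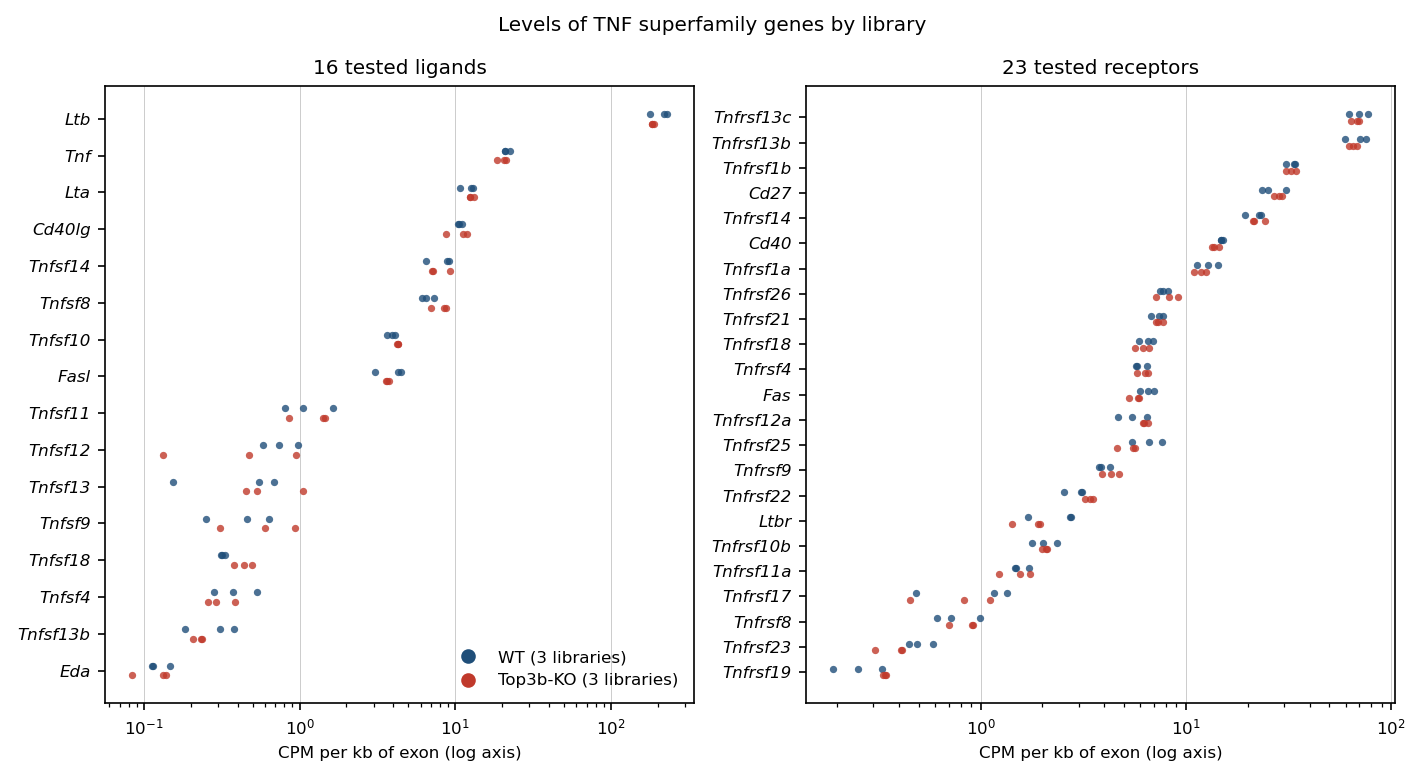
CPM per kb of exon (horizontal log axis) of the 16 tested ligands and 23 tested receptors (vertical axis, ordered by mean level), 1 point per library. The ligands span from Eda, near 0.122 CPM per kb, to Ltb, near 198 CPM per kb, and the points of the genotypes lie close together in nearly all rows.

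The 5 members that were not tested were close to absent or thinly counted. Edar, the receptor of ectodysplasin in skin, had 0 counts in 5 libraries and 2 in Top3b-KO replicate 3. Tnfrsf11b, the soluble decoy osteoprotegerin, had 0 to 2 counts per library, and Cd70, the ligand of Cd27, had 0 or 1. Tnfsf15, the ligand TL1A of Tnfrsf25, had 9, 1, 3 counts in the WT libraries and 15, 7, 1 in the knockout libraries. Tnfsf13os had 5, 7, 8 counts in the WT libraries and 12, 17, 1 in the knockout libraries. No fold change is given for these genes.

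The 3 members with an unadjusted p under 0.05 are shown with the sequence before their transcription starts, since they are the members with the lowest p-values. Tnfsf8 encodes the CD30 ligand, made by activated T cells and other leukocytes. It was at 27.6, 23.5 and 24.6 CPM in the WT libraries and 33.3, 32.3 and 26.6 CPM in the knockout libraries. Top3b-KO replicates 1 and 2 stood above all WT libraries, whereas Top3b-KO replicate 3 lay within the WT range. The means were 25.2 ± 2.16 and 30.7 ± 3.59 CPM (SD, n = 3). The log2 fold change was 0.30 (standard error 0.10), with an unadjusted p of 0.0085 and an adjusted p of 0.76 by edgeR. Tnfrsf25 encodes death receptor 3, a costimulatory receptor of T cells that carries a death domain. Its level was 17.5, 15.0 and 12.4 CPM in the WT libraries and 12.8, 10.5 and 12.6 CPM in the knockout libraries. WT replicate 3 fell within the knockout range, so the groups overlapped. The log2 fold change was -0.33 (standard error 0.13), its interval is given above, and it had an unadjusted p of 0.025 and an adjusted p of 0.86 by edgeR. Ltb was at 349, 335 and 271 CPM in the WT libraries and 287, 278 and 279 CPM in the knockout libraries. WT replicates 1 and 2 lay above every knockout library and WT replicate 3 below all of them. The means were 318 ± 41.5 and 281 ± 4.60 CPM (SD, n = 3). The log2 fold change was -0.18 (standard error 0.080), with an unadjusted p of 0.039 and an adjusted p of 0.88 by edgeR. Without WT replicate 3 the log2 fold change of Ltb was -0.28 and its adjusted p 0.036 by edgeR, and without WT replicate 1 it was -0.11 with an adjusted p of 0.99. The unadjusted p of Ltb was under 0.05 in 9 of 15 alternative analyses and was above it by limma-voom and without any single library other than WT replicate 3. That of Tnfrsf25 was under 0.05 in 12 of 15, and was 0.16 without WT replicate 1 (log2 fold change -0.20), 0.062 with WT replicate 2 left out and 0.15 without Top3b-KO replicate 2 (log2 fold change -0.22) by edgeR. For Tnfsf8 it was under 0.05 in 15 of 15.

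The sequences come from RefSeq on build GRCm38.p6, run 5′ to 3′ along the gene, and end at the listed start or before the first annotated exon base. They lie at chr4:63861348-63861534 (minus strand) for Tnfsf8, chr4:152115684-152115933 (plus strand) for Tnfrsf25 and chr17:35194257-35194438 (plus strand) for Ltb. Capitals mark a match to the κB consensus, the letters bound by NF-κB, searched by that name on both strands.
Tnfsf8: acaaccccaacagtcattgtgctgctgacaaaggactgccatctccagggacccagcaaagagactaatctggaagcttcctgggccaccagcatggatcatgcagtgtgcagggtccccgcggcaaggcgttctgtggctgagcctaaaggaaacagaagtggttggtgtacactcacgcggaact
Tnfrsf25: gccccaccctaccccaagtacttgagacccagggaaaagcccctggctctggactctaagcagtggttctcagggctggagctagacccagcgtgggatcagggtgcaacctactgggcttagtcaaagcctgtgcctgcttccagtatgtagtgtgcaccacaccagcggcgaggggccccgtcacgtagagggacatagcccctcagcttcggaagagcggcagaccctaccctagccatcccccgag
Ltb: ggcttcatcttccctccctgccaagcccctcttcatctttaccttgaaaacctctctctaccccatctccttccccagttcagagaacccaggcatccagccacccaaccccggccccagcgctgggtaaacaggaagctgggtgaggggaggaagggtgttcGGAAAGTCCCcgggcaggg
Ltb, a textbook NF-κB target, holds 1 match, and the windows of Tnfsf8 and Tnfrsf25 printed here hold none. A promoter was found for 33 members, and 4 of them (12.1%) have a match in the 250 bases before a start, beside 8.23% of 27025 genes. The others were Tnfrsf8, Tnfrsf9 and a second start of Tnfrsf25. A match is a run of letters and not a bound site.

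**Figure D3:**
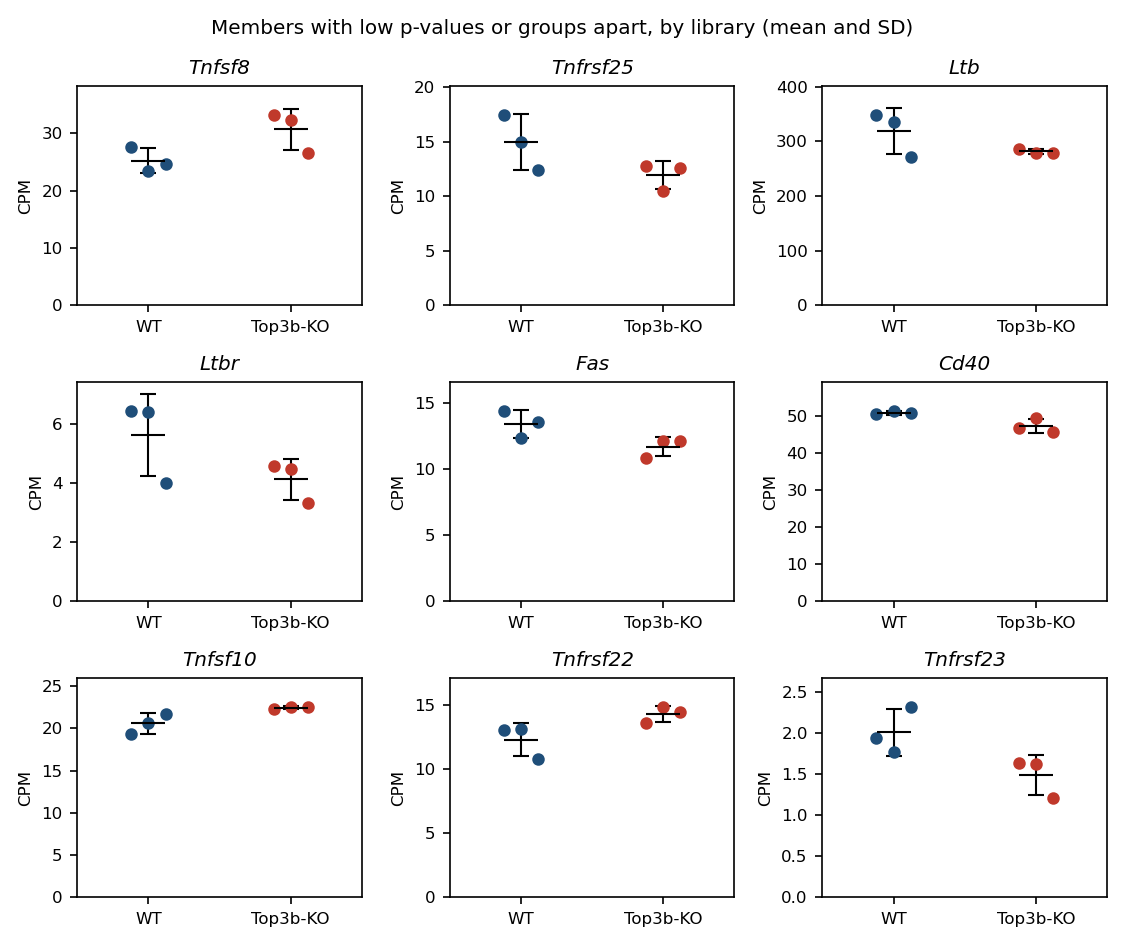
CPM in each library (vertical axis from 0; points, libraries; bar and whiskers, mean and SD, n = 3) for 9 members in WT and Top3b-KO (horizontal axis). Ltb and Ltbr show a single low WT library, and the genotypes of Fas, Cd40, Tnfsf10, Tnfrsf22 and Tnfrsf23 do not overlap.

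Among the 8 genes of the TNF and lymphotoxin group, 2 had log2 fold changes above 0 and 6 below, with a median of -0.064. Tnf, the founding inflammatory cytokine, was at 36.7, 34.2 and 34.1 CPM in the WT libraries and 33.8, 34.7 and 30.6 CPM in the knockout libraries, and the groups overlapped. Its log2 fold change was -0.078 (standard error 0.085), with a 95% interval of -0.26 to 0.10. Lta, which forms a secreted homotrimer or joins Ltb on the membrane, was at 18.0, 17.4 and 15.0 CPM in the WT libraries and 18.1, 17.3 and 17.2 CPM in the knockout libraries. Here the lowest library was WT replicate 3 and the rest lay close together. Tnfsf14, the ligand LIGHT, was at 17.0, 16.4 and 12.1 CPM in the WT libraries and 13.0, 17.1 and 13.4 CPM in the knockout libraries, again with WT replicate 3 lowest. Tnfrsf1b, the TNF receptor of lymphocytes, was at 130.4, 128 and 117 CPM in the WT libraries and 118, 124 and 131 CPM in the knockout libraries, and its log2 fold change of -0.012 (standard error 0.069) had an interval of -0.16 to 0.13. Tnfrsf1a, the widely expressed TNF receptor with a death domain, was at 37.1, 33.1 and 29.5 CPM in the WT libraries and 30.6, 28.4 and 32.4 CPM in the knockout libraries. Tnfrsf14, which binds LIGHT and lymphotoxin alpha, was at 32.8, 33.6 and 28.0 CPM in the WT libraries and 31.0, 30.5 and 34.9 CPM in the knockout libraries. The log2 fold changes of Lta, Tnfsf14, Tnfrsf1a and Tnfrsf14 were 0.067 (standard error 0.11), -0.051 (standard error 0.14), -0.13 (standard error 0.096) and 0.023 (standard error 0.094), and none of these genes separated the genotypes. Ltbr, the lymphotoxin beta receptor of stromal and myeloid cells, was the group's lowest gene at 6.46, 6.42 and 4.02 CPM in the WT libraries and 4.59, 4.48 and 3.34 CPM in the knockout libraries, with a log2 fold change of -0.40 (standard error 0.20) and an unadjusted p of 0.053 (adjusted p = 0.90) by edgeR. With a library left out, the log2 fold change of Ltbr ran from -0.60 (without WT replicate 3) to -0.30. Its unadjusted p was under 0.05 in 4 of 15 alternative analyses. The summed dendritic cell markers ran from 177 to 198 CPM over the WT libraries and from 155 to 175 CPM over the knockout libraries, with 6 of 6 below 0. Most of that sum was Itgax, at 96.0 to 108 CPM in WT and 85.7 to 94.6 CPM in the knockout. Of 8 monocyte and macrophage markers, 3 had log2 fold changes above 0 and 5 below (median -0.017). Stromal and endothelial sums overlapped, at 241 to 271 CPM over the WT libraries and 251 to 271 CPM over the knockout libraries. Nearly all of that sum was Pecam1, at 237 to 267 CPM in WT and 247 to 268 CPM in the knockout. Its log2 fold change was 0.023 (standard error 0.067). The other tested genes of that list, Pdgfrb and Cdh5, were thinly counted. Their log2 fold changes were -0.62 (standard error 0.40) and -0.32 (standard error 0.25). The part of these cell types in the values of Ltbr was not tested.

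Tnf, Lta and Ltb are direct neighbours on chromosome 17, so their proportions were compared within each library. Of their summed CPM per kb, Ltb made up 86.6, 86.9 and 85.0% among WT and 84.9, 84.5 and 85.6% among knockout libraries, and Tnf 8.45, 8.20 and 9.89% among WT and 9.24, 9.76 and 8.66% among knockout libraries. The share of Lta was 4.91, 4.93 and 5.14% among WT and 5.89, 5.75 and 5.78% among knockout libraries. The 3 knockout libraries stood above the 3 WT libraries for Lta, a difference of 0.813 percentage points with a two-sided exact permutation p of 0.1, the smallest that 3 against 3 can give, and an adjusted p of 0.6 over the 8 shares compared. Leaving out any 1 library kept the difference between 0.771 and 0.885 points, where its sign could not change because the groups do not overlap. The share also depends on Ltb, which makes up most of the sum and had a log2 fold change of -0.18. Lta itself had a log2 fold change of 0.067 (standard error 0.11), and its CPM overlapped between genotypes. These shares were chosen after the data were seen. Of the pair of TNF receptors, Tnfrsf1b made up 70.4, 72.4 and 72.9% among WT and 72.2, 74.7 and 73.4% among knockout libraries (exact permutation p = 0.3).

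**Figure D4:**
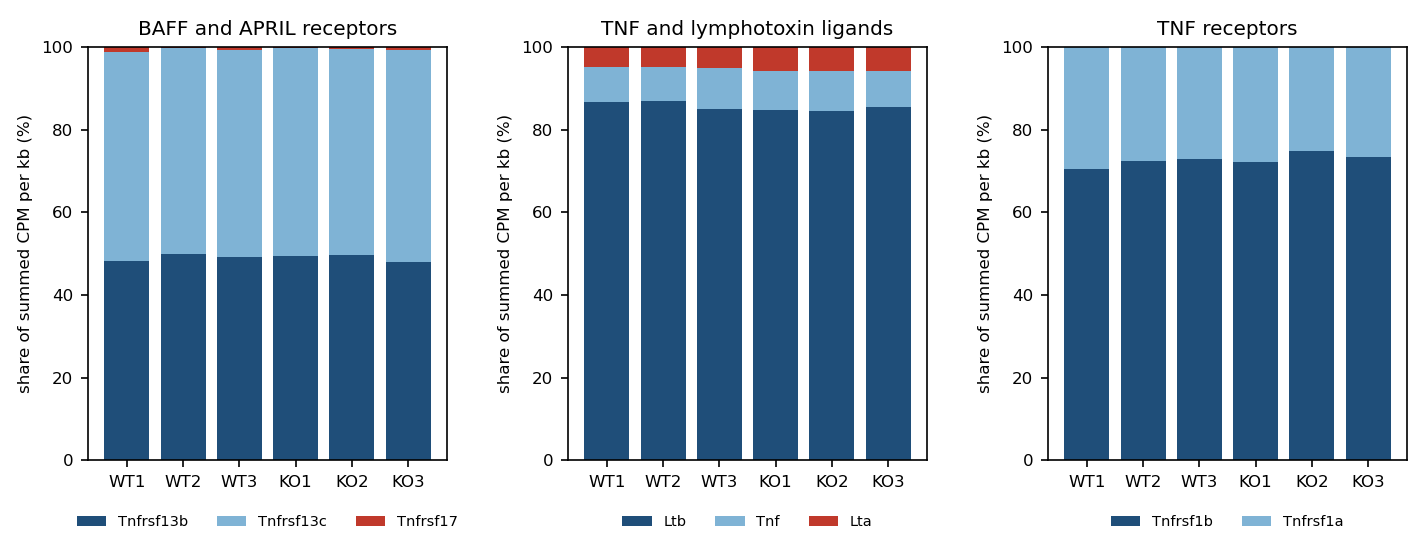
Share of the summed CPM per kb (vertical axis, percent) held by each gene of 3 sets in each library (horizontal axis; WT1 to WT3 and KO1 to KO3 are the replicates). The BAFF and APRIL receptors are nearly all Tnfrsf13b and Tnfrsf13c, and Lta takes 4.99% on average in WT and 5.81% in Top3b-KO.

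In the B cell survival axis the receptors were abundant and the ligands scarce. Tnfrsf13b (TACI) was at 168, 199.6 and 215 CPM in the WT libraries and 177, 193 and 186 CPM in the knockout libraries. Tnfrsf13c, the BAFF receptor that mature B cells need to survive, was at 127, 143 and 158 CPM in the WT libraries and 129.8, 139.7 and 143 CPM in the knockout libraries. In both genes WT replicate 1 was the lowest library and WT replicate 3 the highest, with the knockout libraries between them. Their log2 fold changes were -0.069 (standard error 0.079) and -0.056 (standard error 0.077), with intervals of -0.24 to 0.098 and -0.22 to 0.10. Of 8 B cell markers, 1 had a log2 fold change above 0 and 7 below (median -0.030). Their summed level, given above, was likewise lowest in WT replicate 1 and was highest in WT replicates 2 and 3, and their part in these levels was not tested. Of the 3 receptors' summed CPM per kb, Tnfrsf13b held 49.2 ± 0.853% in WT against 49.0 ± 0.834% in the knockout, and Tnfrsf13c 50.1 ± 0.477% against 50.4 ± 0.666% (SD, n = 3). Tnfrsf17 (BCMA), the receptor of plasma cells, had 17, 6, 15 counts in the WT libraries and 9, 17, 9 in the knockout libraries, and a log2 fold change of -0.44 (standard error 0.44). Plasma cell markers, 6 of 6 with log2 fold changes below 0 (median -0.068), ran from 461 to 547 CPM over the WT libraries and from 408 to 551 CPM over the knockout libraries, and their part in the values of Tnfrsf17 was not tested. Tnfsf13b, which encodes BAFF, is made mainly by stromal and myeloid cells, and ranged from 1.26 to 2.62 CPM. Its log2 fold change was -0.38 (standard error 0.28) with an interval of -0.96 to 0.20. Tnfsf13, which encodes APRIL, ranged from 0.251 to 1.72 CPM. Its log2 fold change was 0.40 (standard error 0.45). Of its exon bases, 60.0% also belong to other annotated genes, Tnfsfm13, a joint transcript with the neighbouring Tnfsf12, or the opposite-strand Tnfsf13os, so its counts are uncertain.

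Of 12 tested costimulatory genes, 8 had log2 fold changes above 0 and 4 below (median 0.079). Cd40, through which T cells help B cells, was at 50.4, 51.5 and 50.7 CPM in the WT libraries and 46.8, 49.4 and 45.7 CPM in the knockout libraries. The WT libraries lay all above the knockout libraries. The log2 fold change was -0.10 (standard error 0.074), with an interval of -0.26 to 0.053 and an adjusted p of 0.92 by edgeR. Its ligand Cd40lg ranged from 10.9 to 14.8 CPM with a log2 fold change of 0.0099 (standard error 0.12). The sign of that value is not that of the mean CPM, which was 13.4 in WT and 13.2 in the knockout, because the fit weights libraries by their depth. Cd27, a receptor of T cells and memory B cells, was at 71.2, 58.1 and 54.6 CPM in the WT libraries and 68.1, 62.3 and 65.9 CPM in the knockout libraries, and its highest library was WT replicate 1. Its log2 fold change was 0.093 (standard error 0.089). Tnfsf18, the GITR ligand, was at 0.646, 0.656 and 0.691 CPM in the WT libraries and 0.778, 1.03 and 0.910 CPM in the knockout libraries, from 9 to 26 counts per library. Each knockout library was above each WT library, and the log2 fold change of 0.44 (standard error 0.35) had an interval of -0.28 to 1.17. Its receptor Tnfrsf18 (GITR), a marker of regulatory T cells, ranged from 8.63 to 10.5 CPM, with a log2 fold change of -0.067 (standard error 0.13). Of the exon bases of Tnfrsf18, 27.2% overlap the opposite-strand gene Gm16008, and the strand setting of the counting is not stated, so reads of the pair cannot be told apart.

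The remaining costimulatory receptors of activated T cells were at levels that overlapped between genotypes. Tnfrsf4 (OX40) ranged from 7.79 to 8.95 CPM, Tnfrsf9 (4-1BB) from 10.3 to 12.9 CPM and Tnfrsf8 (CD30) from 2.13 to 3.46 CPM, with log2 fold changes of 0.065 (standard error 0.13), 0.14 (standard error 0.12) and 0.092 (standard error 0.23). Their ligands were thinly counted: Tnfsf4 ranged from 0.475 to 0.983 CPM and Tnfsf9 from 0.323 to 1.21 CPM, with intervals of -1.26 to 0.42 and -0.67 to 1.26 that reach past a 1.5-fold change. Among markers of the cells that carry these receptors, 4 of 4 regulatory T cell genes had log2 fold changes above 0 and 0 passed. Of all 18716 tested genes, 9193 were above 0. The summed level of the 4 ran from 137 to 150.4 CPM over the WT libraries and from 151 to 161 CPM over the knockout libraries. Most of that sum was Ikzf2, at 82.9, 85.7 and 96.8 CPM in the WT libraries and 93.2, 102.9 and 94.4 CPM in the knockout libraries. Foxp3 was at 23.1, 17.8 and 15.0 CPM in the WT libraries and 21.5, 19.5 and 21.3 CPM in the knockout libraries. Taken singly, each of the 4 genes overlapped between genotypes. For T cells as a whole, 9 of 10 markers were above 0, and the summed level ran from 1447 to 1669 CPM over the WT libraries and from 1598 to 1633 CPM over the knockout libraries. The part of these cell types in the values of Tnfsf8 and the receptors was not tested.

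Among 8 genes of death receptors, decoys and their paralogs, the genotypes did not overlap for 4, of which 2 were higher and 2 lower in Top3b-KO, beside 11.0% of all tested genes without overlap (5.39% higher, 5.63% lower). None of the 8 had an unadjusted p under 0.05. Fas, the death receptor that removes activated lymphocytes, was at 14.4, 12.3 and 13.5 CPM in the WT libraries and 10.9, 12.1 and 12.1 CPM in the knockout libraries. The knockout libraries were all lower, with means of 13.4 ± 1.04 and 11.7 ± 0.726 CPM (SD, n = 3). The log2 fold change was -0.20 (standard error 0.12), with an unadjusted p of 0.098 and an adjusted p of 0.91 by edgeR. Its ligand Fasl, made by cytotoxic T cells and natural killer cells, ranged from 5.90 to 8.72 CPM, with a log2 fold change of -0.11 (standard error 0.16). Natural killer markers ran from 212 to 260.1 CPM over the WT libraries and from 203 to 242 CPM over the knockout libraries. Of these, 6 of 6 had log2 fold changes below 0, beside 9523 of all 18716 tested genes. T cell markers went mostly the other way, with 9 of 10 above 0, and Cd8a had a log2 fold change of 0.12 (standard error 0.077). The part of either cell type in the values of Fasl was not tested. Tnfsf10, the ligand TRAIL, was at 19.3, 20.6 and 21.7 CPM in the WT libraries and 22.2, 22.5 and 22.6 CPM in the knockout libraries. All knockout libraries were higher, by a small margin, and the log2 fold change was 0.13 (standard error 0.094) with an adjusted p of 0.92 by edgeR. The mouse TRAIL receptor Tnfrsf10b ranged from 9.74 to 12.8 CPM, with a log2 fold change of 0.0022 (standard error 0.13). Tnfrsf21 (death receptor 6) was at 31.6, 30.5 and 27.7 CPM in the WT libraries and 30.0, 29.3 and 31.9 CPM in the knockout libraries, with overlapping groups and a log2 fold change of 0.017 (standard error 0.088).

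Tnfrsf22, Tnfrsf23 and Tnfrsf26 are neighbouring paralogs on chromosome 7. Tnfrsf22 and Tnfrsf23 are known as decoy TRAIL receptors, and their fitted differences had opposite signs. Tnfrsf22 was at 13.0, 13.1 and 10.8 CPM in the WT libraries and 13.6, 14.9 and 14.5 CPM in the knockout libraries, all knockout libraries higher, at a log2 fold change of 0.22 (standard error 0.12), with an adjusted p of 0.91 by edgeR. Tnfrsf23 was at 1.94, 1.77 and 2.32 CPM in the WT libraries and 1.64, 1.62 and 1.21 CPM in the knockout libraries, all knockout libraries lower, at a log2 fold change of -0.38 (standard error 0.25), with an adjusted p of 0.91 by edgeR. Tnfrsf26 was at 24.9, 24.1 and 26.4 CPM in the WT libraries and 23.1, 26.8 and 29.5 CPM in the knockout libraries, with overlapping groups and a log2 fold change of 0.060 (standard error 0.10). Of all 50-base stretches in Tnfrsf22 transcripts, 17.3% also occur in Tnfrsf23, and 18.0% the other way, while none were shared with Tnfrsf26. How the authors' counting assigned reads that fit both genes is not stated in the labels, so both values are uncertain. The stretch of coding sequence with the longest run in common is shown, from GENCODE M21. It was picked for that run, so it does not measure how alike the 2 genes are as a whole. It covers coding bases 381 to 558 of Tnfrsf22 and 351 to 528 of Tnfrsf23, and capitals mark the 20 positions of 178 where they differ.
Tnfrsf22: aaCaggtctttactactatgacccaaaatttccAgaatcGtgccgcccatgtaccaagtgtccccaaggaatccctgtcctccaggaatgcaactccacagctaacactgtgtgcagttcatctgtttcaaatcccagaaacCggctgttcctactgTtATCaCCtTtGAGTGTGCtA
Tnfrsf23: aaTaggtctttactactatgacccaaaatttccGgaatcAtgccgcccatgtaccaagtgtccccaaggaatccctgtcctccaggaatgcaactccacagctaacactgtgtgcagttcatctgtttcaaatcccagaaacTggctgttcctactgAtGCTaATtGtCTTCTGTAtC
The run without a difference is 102 bases long. Tnfrsf22 transcripts were the more abundant, at 3.16 CPM per kb on average beside 0.442 for Tnfrsf23.

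Members best known from bone, skin and tissue repair were mostly thinly counted, apart from Tnfrsf12a and Tnfrsf11a, and 6 of 8 were tested. Tnfrsf11a (RANK), the receptor that drives osteoclasts, ranged from 7.38 to 10.4 CPM, and its ligand Tnfsf11 (RANKL) from 1.81 to 3.64 CPM. Their log2 fold changes were -0.016 (standard error 0.14) and 0.16 (standard error 0.26). Tnfrsf12a, the receptor Fn14 of the ligand TWEAK, was lowest in WT replicate 1 and ranged from 8.98 to 12.7 CPM, with a log2 fold change of 0.20 (standard error 0.13). Tnfsf12, which encodes TWEAK, ranged from 0.202 to 1.49 CPM, the lowest value being 2 counts in Top3b-KO replicate 3. Of its exon bases, 48.3% are shared with Tnfsfm13. Tnfrsf19 (TROY), an orphan receptor of epithelium and the nervous system, was at 0.904, 1.57 and 1.19 CPM in the WT libraries and 1.64, 1.58 and 1.62 CPM in the knockout libraries. All knockout libraries were above all WT libraries, from 14 to 40 counts per library. The nearest, Top3b-KO replicate 2 at 1.584 CPM and WT replicate 2 at 1.573 CPM, were closer than the floor of 3 counts. The log2 fold change was 0.40 (standard error 0.28) with an adjusted p of 0.91 by edgeR. Eda, the ectodysplasin ligand, ranged from 0.573 to 1.01 CPM, with a log2 fold change of -0.11 (standard error 0.35), and that of Tnfsf12 was -0.37 (standard error 0.42).

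A ratio of ligand to receptor counts within a library does not depend on scaling between libraries, and 6 pairs were compared on the log2 scale (SD, n = 3, with 1 count added to each gene). Ltb/Ltbr was 5.83 ± 0.20 over WT and 6.08 ± 0.23 over knockout libraries, a difference of 0.25 (exact permutation p = 0.3). The BAFF pair Tnfsf13b/Tnfrsf13c was -6.16 ± 0.64 over WT and -6.42 ± 0.14 over knockout libraries, so the receptor had far more counts than the ligand in both. Cd40lg/Cd40 was -1.92 ± 0.063 over WT and -1.84 ± 0.18 over knockout libraries, and Tnf/Tnfrsf1b was -1.83 ± 0.065 over WT and -1.91 ± 0.17 over knockout libraries. Fasl/Fas was -0.82 ± 0.20 over WT and -0.71 ± 0.091 over knockout libraries. The ratio Cd70/Cd27 rests on 0 or 1 count of Cd70 per library and carries no information on a difference. Exact permutation p-values (two-sided) ran from 0.3 to 0.6 with an adjusted p of 0.6 for each pair over the 6, and 0.1 is the smallest that this design allows. All pairs overlapped between genotypes.

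Genes that act downstream of the receptors showed small fitted differences. Of 38 adaptors, kinases and NF-κB genes, all tested, 0 passed the adjusted threshold by edgeR, and 1 had an unadjusted p under 0.05, where 5.52% of all tested genes did. Their median log2 fold change was -0.0035, with a range of -0.16 to 0.14. That gene was Relb, an NF-κB subunit of the noncanonical pathway, at 82.3 ± 4.33 and 73.7 ± 3.80 CPM in WT and knockout (SD, n = 3). Its log2 fold change was -0.16 (standard error 0.072), with an unadjusted p of 0.040 and an adjusted p of 0.88 by edgeR. Other genes of that pathway were nearer to 0. Map3k14 and Nfkb2 had log2 fold changes of -0.040 (standard error 0.072) and -0.052 (standard error 0.085). Those of Traf3 and Chuk were -0.033 (standard error 0.068) and 0.051 (standard error 0.075). Elsewhere in the list, Rela, Rnf31 and Rbck1 were near Relb, at -0.15 (standard error 0.076), -0.14 (standard error 0.076) and -0.13 (standard error 0.074). Tab3 was highest at 0.14 (standard error 0.086), and 18 of the 38 were above 0 and 20 below. Nfkb1, the precursor of the smaller NF-κB subunit, and Ikbkb, the kinase that activates the canonical pathway, had the most counts, with log2 fold changes of -0.016 (standard error 0.067) and -0.0048 (standard error 0.068). Of 6 genes that cleave and shed ligands or receptors, 1 had an unadjusted p under 0.05 by edgeR, where 5.52% of all tested genes did. This was Rhbdf2, a partner that brings the TNF-cleaving protease Adam17 to the cell surface, at an unadjusted p of 0.023 (adjusted p = 0.86 by edgeR). It was at 58.0 ± 6.83 and 49.2 ± 5.91 CPM (SD, n = 3), and Adam17 itself had a log2 fold change of 0.035 (standard error 0.069).

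The members also share places in the genome. Only genes marked as coding in the RefSeq annotation were placed, which gave 43 of the 44. They are spread over 15 chromosomes, with 9 on chromosome 4, and 12 neighbouring pairs have no other coding gene between them. Direct neighbours had fitted differences of the same or of opposite sign. Tnfsf8, higher at an unadjusted p under 0.05, adjoins Tnfsf15, which was too thinly counted to test. Tnfrsf4 and Tnfrsf18 had log2 fold changes of 0.065 and -0.067, and the chromosome 1 neighbours Tnfsf4, Tnfsf18 and Fasl -0.42, 0.44 and -0.11.

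Markers of other splenic cells give the setting of these values. Neutrophil markers ran from 604 to 1071 CPM over the WT libraries and from 434 to 1449 CPM over the knockout libraries, with the highest sum in Top3b-KO replicate 3. Summed monocyte and macrophage markers ran from 887 to 959.5 CPM over the WT libraries and from 813 to 1021 CPM over the knockout libraries. Summed erythroid markers, 6 of 6 with log2 fold changes below 0 (median -0.38), ran from 961 to 1662 CPM over the WT libraries and from 781 to 1123 CPM over the knockout libraries, and platelet markers from 7.79 to 10.2 CPM over the WT libraries and from 8.48 to 11.0 CPM over the knockout libraries. Stromal and endothelial markers, nearly all of whose sum was Pecam1, ran from 241 to 271 CPM over the WT libraries and from 251 to 271 CPM over the knockout libraries. Of their 8 genes, 5 had too few counts to test, namely Col1a1, Col1a2, Col3a1, Ccl21a and Cxcl13. In these lists 0 genes passed the adjusted threshold by edgeR, and those with an unadjusted p under 0.05 in any marker list were Cd3e (log2 fold change 0.17), Klrb1c (-0.28) and Itgax (-0.18). These were 1 of 10 T cell, 1 of 6 natural killer and 1 of 6 dendritic cell markers, and the other marker lists held 0. Of all tested genes, 5.52% had such a p by edgeR.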

How the data were processed

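Total RNA of splenocytes from WT and Top3b-KO mice was sequenced in 3 libraries each. The authors deposited 1 table of expected counts per gene symbol, not scaled for depth. STAR and the build mm39 are named in the submitters' processing notes. Sources used here do not name the counting tool, its strand setting or the annotation. The labels' protocols describe more than one strand-specific library kit and instrument for the splenocytes, so the preparation of each library is not settled. Values were rounded to whole numbers (72 of 56413 symbols, no member among them, held fractions beyond a tolerance of 0.001).

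Genes were kept by filterByExpr and tested with edgeR 4.0.16 (R 4.3.3, quasi-likelihood, TMM, robust, genotype only, two-sided, Benjamini-Hochberg over all tested genes, threshold 0.05). Intervals are 95% and follow from the fitted SE. DESeq2 1.42.0 and limma 3.58.1 (voom) were alternatives, beside other scalings, filters, a replicate block and leaving out each library. The test was checked on simulated data. Exon lengths, overlaps and shared stretches came from GENCODE M21 (all 44 symbols matched; GRCm38) and promoters from RefSeq. Values by library are given for members with an unadjusted p under 0.05 or groups that do not overlap, the 6 most abundant ligands and the 12 most abundant receptors. One B cell marker is not reported here and was left out of the summed markers. The members and lists were chosen with earlier results of these data known, and the shares within gene sets after the data were seen.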

Additional observations from a re-analysis of the deposited data

How the results depend on the processing

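Under the 15 alternatives the count of members past the adjusted threshold was 0 in all but 1, leaving out WT replicate 3, where it was 1 (Ltb), so the range over left-out libraries was 0 to 1. It was also 0 at a threshold of 0.1. Members at an unadjusted p under 0.05 numbered 1 (without Top3b-KO replicate 2) to 6 (without WT replicate 3), and 2 to 4 under the other alternatives. Tnfsf8 was among them in all 15. The median log2 fold change of tested members ran from -0.038 to 0.034 when a library was left out (the highest without Top3b-KO replicate 1). Of all genes 2 passed as reported. This became 44 without a low-count filter, 6 by DESeq2, 1 with limma-voom, 1 with robust=FALSE, 41 with the replicate block and 1 to 32 with a library left out. With the replicate block, 4 members had an unadjusted p under 0.05 (10.3%; Ltbr was added) beside 6.86% of all tested genes, and 0 an adjusted one. Libraries sharing a number had deviations whose correlations were 0.156, -0.0067 and 0.0093, so the numbers do not show a pairing throughout. WT replicate 2 with Top3b-KO replicate 3 had 0.073, and WT replicate 3 with Top3b-KO replicate 2 had 0.078. The remaining correlations ran from -0.080 to -0.073. Whether libraries were handled together under other numbers was not tested. Of 39 members, 23 kept their sign in all alternatives that gave a value, and 16 changed it in at least 1. With a library left out, their log2 fold changes ran as follows: Cd40lg -0.073 to 0.11, Eda -0.30 to 0.14, Lta -0.011 to 0.12, Tnfrsf10b -0.091 to 0.11, Tnfrsf11a -0.12 to 0.082, Tnfrsf13b -0.17 to 0.0091, Tnfrsf13c -0.14 to 0.020, Tnfrsf14 -0.056 to 0.072. The rest were Tnfrsf18 -0.13 to 0.0027, Tnfrsf1b -0.061 to 0.034, Tnfrsf21 -0.038 to 0.055, Tnfrsf26 -0.013 to 0.16, Tnfrsf8 -0.054 to 0.31, Tnfsf11 -0.044 to 0.49, Tnfsf13 -0.019 to 0.79, Tnfsf14 -0.20 to 0.044. Of the members that kept their sign, these moved by over 1.5 times on the log2 scale: Cd27 0.015 to 0.21, Fasl -0.26 to -0.0060, Ltb -0.28 to -0.11, Tnf -0.11 to -0.032, Tnfrsf12a 0.092 to 0.33, Tnfrsf17 -0.76 to -0.10, Tnfrsf19 0.22 to 0.62, Tnfrsf1a -0.21 to -0.047. So did Tnfrsf22 0.13 to 0.26, Tnfrsf25 -0.45 to -0.20, Tnfrsf4 0.029 to 0.13, Tnfrsf9 0.075 to 0.20, Tnfsf10 0.079 to 0.17, Tnfsf12 -1.06 to -0.11, Tnfsf13b -0.63 to -0.14, Tnfsf4 -0.62 to -0.15, Tnfsf9 0.012 to 0.69. For Tnfsf12 the lowest value was that without Top3b-KO replicate 1 (unadjusted p = 0.032 by edgeR). Cd40lg was also -0.0020 with total count scaling and -0.0071 with the replicate block, and Tnfrsf10b -0.0097 and -0.0045. The ligand to receptor differences ran, with a library left out, from -0.13 to 0.018 for Tnf/Tnfrsf1b, -0.0076 to 0.18 for Fasl/Fas, both of which changed sign, and the other 4 pairs did not. Differences in shares, in percentage points, ran -0.56 to 0.35 for Tnfrsf13b, -0.10 to 0.55 for Tnfrsf13c and -0.33 to 0.047 for Tnfrsf17. Why signs changed was not tested. Depth limits mostly the 17 members under 10 CPM and Top3b-KO replicate 3.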
